A study of Mus musculus with 88 samples.

Results

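Hearts of 21-day-old mice that lack the lipoprotein receptor SR-BI as well as apolipoprotein E were compared with hearts of mice of the same age that keep 1 working SR-BI allele and also lack apolipoprotein E. The comparison used the 10 arrays titled dKO at 21 days and the 9 arrays titled HET at 21 days, both without probucol, which are 19 of the 88 arrays of the series. The dKO mice were SR-BI-/- apoE-/-, the HET mice were SR-BI+/- apoE-/-, both groups ate chow, and each whole heart was hybridised to its own Affymetrix array. All mice on both sides therefore lacked apolipoprotein E, and no mouse with normal apolipoprotein E was part of the comparison. Sources used here do not give the strain background, the sex of the mice or how the deletions were made. By the study's design text, coronary disease cannot be detected in dKO mice on chow at 21 days, a failing heart with small infarcts is found by 31 days, and by 43 days the infarcts are extensive and the failure severe, whereas HET mice on chow stay free of detectable disease. The question was therefore which transcripts differed before disease could be detected. For comparison, the same genotypes at 31 days (10 dKO and 10 HET arrays) and 43 days (12 dKO and 9 HET arrays), and at 21 days on feed holding the antioxidant probucol, which lowers lipids (6 dKO and 3 HET arrays), were taken from the same fit.

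SR-BI, encoded by Scarb1, is the receptor through which the liver takes cholesterol out of high-density lipoprotein and through which steroid-producing cells of the adrenal gland take it up. Apolipoprotein E is the ligand by which lipoprotein remnants are cleared. Mice without SR-BI are known to carry large cholesterol-rich high-density lipoprotein particles, to have immature and cholesterol-rich red cells, and to make less glucocorticoid under stress. When cells hold an excess of cholesterol, oxidised derivatives activate the nuclear receptors LXR, which switch on genes for cholesterol export and fatty acid synthesis. Macrophages that take up lipoproteins are the main cells of early lesions in the artery wall. These are facts of background and no result of the arrays.

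Myh6, the adult cardiac myosin heavy chain, lay between 12.52 and 13.24 on the log2 scale in the dKO arrays and between 12.45 and 13.28 in the HET arrays. The deposited signals, from the program MAS5, were raised to a floor of 4.22, converted to log2 and centred on each array's median, and the values below are on that scale. Arrays differed in brightness: the median signal was 27.81 to 41.67 in dKO and 29.9 to 52.06 in HET arrays, and 8.62% to 21.8% of the probe sets of a dKO array lay at the floor, against 1.33% to 15.2% of a HET array. The highest median, the lowest share at the floor and the lowest Myh6 value all belonged to HET replicate 2. A set of 20 of the 88 arrays, told apart by a gap in a score of 80 genes and with no label of its own, held 6 of the 10 dKO and 2 of the 9 HET arrays. The mean log2 ratio of the 3' to the 5' actin control probe sets was -0.165 in dKO and 0.0654 in HET arrays. By Xist and Eif2s3y, transcripts of female and of male cells, 5 dKO and 4 HET arrays were female, 4 and 4 were male, and 1 array of each genotype carried both. For dKO replicate 2 the description field gives a later age, and the age in its other labels was followed.

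Promoter sequences are shown for 6 genes that rose in dKO hearts and are described below, because known binding letters of the transcription factors of their pathways can be read in them. They come from RefSeq on the build GRCm38.p6, run 5′ to 3′ on the gene's strand, and cover 250 bases before to 50 bases after the annotated start. In the windows of Abca1 (chr4:53159846-53160145, minus strand) and Srebf1 (chr11:60210422-60210721, minus strand, 1 of 3 starts) the capitals mark GGTTACT and CGGTCA set 2 bases apart, read on the opposite strand, a form of the repeat that LXR binds.
Abca1: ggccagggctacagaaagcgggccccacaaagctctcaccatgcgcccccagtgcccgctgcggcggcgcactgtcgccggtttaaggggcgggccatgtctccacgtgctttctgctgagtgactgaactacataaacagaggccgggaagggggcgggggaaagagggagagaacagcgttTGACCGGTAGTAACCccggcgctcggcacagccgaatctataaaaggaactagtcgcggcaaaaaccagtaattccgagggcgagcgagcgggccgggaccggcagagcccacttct
Srebf1: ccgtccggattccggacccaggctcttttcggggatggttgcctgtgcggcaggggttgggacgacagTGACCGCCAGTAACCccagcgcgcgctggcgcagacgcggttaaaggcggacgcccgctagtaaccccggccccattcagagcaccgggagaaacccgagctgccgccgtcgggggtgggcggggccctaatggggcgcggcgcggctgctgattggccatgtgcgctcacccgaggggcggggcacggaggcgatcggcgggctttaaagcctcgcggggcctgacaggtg
These letters were written down after the Abca1 and Srebf1 windows had been read, so their presence there is a description. On both strands they occurred in 3 of 32851 mouse promoter windows (0.00913%), and the third belonged to Fasn, which encodes fatty acid synthase. Rsad2 (chr12:26456403-26456702, minus strand), B2m (chr2:122147437-122147736, plus strand) and Ctss (chr3:95526536-95526835, plus strand) hold GAAA and GAAA set 2 bases apart, the core of the interferon-stimulated response element, marked in capitals. In Rsad2 the core is read on the opposite strand, and in B2m and Ctss on the gene's strand.
Rsad2: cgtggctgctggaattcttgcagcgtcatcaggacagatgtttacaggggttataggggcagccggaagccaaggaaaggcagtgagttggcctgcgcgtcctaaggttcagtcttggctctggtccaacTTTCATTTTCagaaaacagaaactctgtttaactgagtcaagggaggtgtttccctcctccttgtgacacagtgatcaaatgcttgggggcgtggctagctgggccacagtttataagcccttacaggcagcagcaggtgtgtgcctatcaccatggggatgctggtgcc
B2m: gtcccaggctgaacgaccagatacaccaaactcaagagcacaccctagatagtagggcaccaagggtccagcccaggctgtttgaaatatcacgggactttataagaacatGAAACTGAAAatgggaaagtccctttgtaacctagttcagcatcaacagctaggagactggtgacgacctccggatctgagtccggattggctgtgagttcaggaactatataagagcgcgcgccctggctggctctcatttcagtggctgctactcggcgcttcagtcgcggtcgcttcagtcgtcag
Ctss: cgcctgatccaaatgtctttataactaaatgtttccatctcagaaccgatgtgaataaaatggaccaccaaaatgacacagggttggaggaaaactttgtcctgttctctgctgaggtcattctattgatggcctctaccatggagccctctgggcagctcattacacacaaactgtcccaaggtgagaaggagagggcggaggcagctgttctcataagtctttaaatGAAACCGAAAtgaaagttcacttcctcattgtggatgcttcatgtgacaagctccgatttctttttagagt
That core occurred in 1131 windows (3.44%) on either strand. Alas2 (chrX:150547167-150547466, plus strand) holds AGATAA, the letters bound by the erythroid factor GATA1, on the opposite strand.
Alas2: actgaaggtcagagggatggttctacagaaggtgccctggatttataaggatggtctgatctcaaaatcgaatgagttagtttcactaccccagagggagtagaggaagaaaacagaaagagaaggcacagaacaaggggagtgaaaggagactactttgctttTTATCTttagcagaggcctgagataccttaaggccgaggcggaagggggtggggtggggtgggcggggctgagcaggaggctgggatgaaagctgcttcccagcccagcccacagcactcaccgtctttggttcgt
AGATAA is common and was found in 3672 windows (11.2%). Of the 35 genes described next that have a window, 3 hold it (8.57%), Alas2, Isg20 and Mpeg1, of which only Alas2 is on the erythroid list, so its share among them was not above that of all windows. The glucocorticoid receptor's palindrome, GAACA and TGTTC set 3 bases apart, occurred in 19 windows (0.0578%) and in none of those of the 35 genes. A match of letters is no evidence of binding.

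Of 5683 genes tested, 290 (5.10%) differed between dKO and HET hearts at 21 days at an adjusted p under 0.05 (limma, Benjamini-Hochberg), 234 higher (4.12%) and 56 lower (0.985%). The balance of directions depended on how arrays were scaled. The median difference of all genes was 0.12 here, and -0.10 in the signals as deposited, where 119 genes (2.09%) passed, 38 higher (0.669%) and 81 lower (1.43%). It was 0.00286 with quantile normalization, where 129 passed (2.27%), 89 higher (1.57%) and 40 lower (0.704%), and -0.00152 when arrays were centred on the tested genes, where 196 passed (3.45%), 115 higher (2.02%) and 81 lower (1.43%). Fitting the 19 arrays alone left 110 genes (1.94%), 99 higher (1.74%) and 11 lower (0.194%). The account below leads with the 45 genes (0.792%) that passed in the same direction under all 4 scalings and in the fit of the 19 arrays, a rule set after the data had been seen. In dKO hearts 37 of them were higher (0.651%) and 8 lower (0.141%). All 45 also passed with the array set as a block, where 144 genes passed (2.53%), 116 higher (2.04%) and 28 lower, with the actin ratio as a covariate, with Eif2s3y minus Xist as a covariate and without dKO replicate 2. Within the larger array set, with 4 dKO and 7 HET arrays, 14 of the 45 passed, and within the smaller one, with 6 and 2 arrays, 25 did. The HET arrays of the smaller set were replicates 2 and 3, so its values lean on replicate 2, the brightest HET array. For Srebf1, low in that replicate, the difference was 2.39 in the smaller set and 0.91 in the larger. All 45 kept their direction in both sets. These checks reused the arrays on which the 45 were chosen, which favours the same direction, so they are no independent support.

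**Figure D1:**
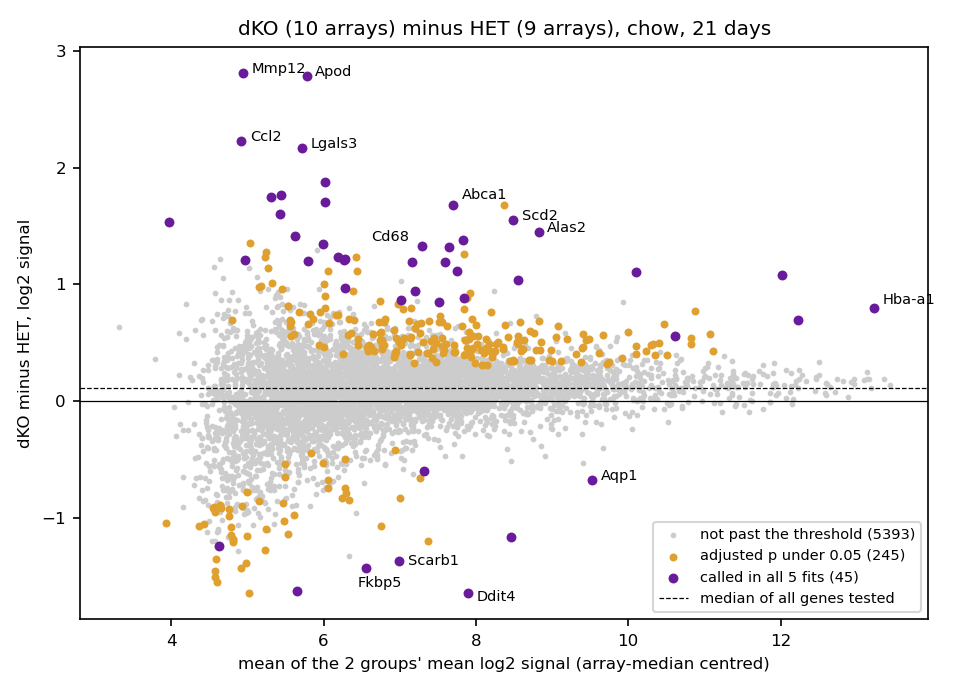
Difference between dKO and HET hearts at 21 days on chow (vertical, log2 signal) against the mean level of the groups (horizontal, log2 signal) for 5683 genes. Purple points are the 45 genes called in all 5 fits, and orange points are the other genes past the threshold, many of them falls at low signal at the left.

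The 37 higher genes averaged 7.25 to 8.43 in the single dKO arrays and 6.18 to 6.83 in the HET arrays, so that by this mean, which the choice of the genes fixes, each dKO array lay above each HET array. The highest dKO array was replicate 2 and the lowest replicate 7. The 8 lower genes averaged 6.20 to 6.85 in dKO and 6.78 to 8.25 in HET arrays, where 9 of 10 dKO arrays lay below all HET arrays. Groups of 15 genes (0.264% of those tested) did not overlap at all. Of these 13 were above in dKO (0.229%), namely Apod, Abca1, Scd2, Cfp, Srebf1, Cd68, Mpeg1, Meox2, Slc4a1, Hmox1, Sprr1b, Pltp and Exosc4, and 2 were below (0.0352%), Scarb1 and Ddit4.

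**Figure D2:**
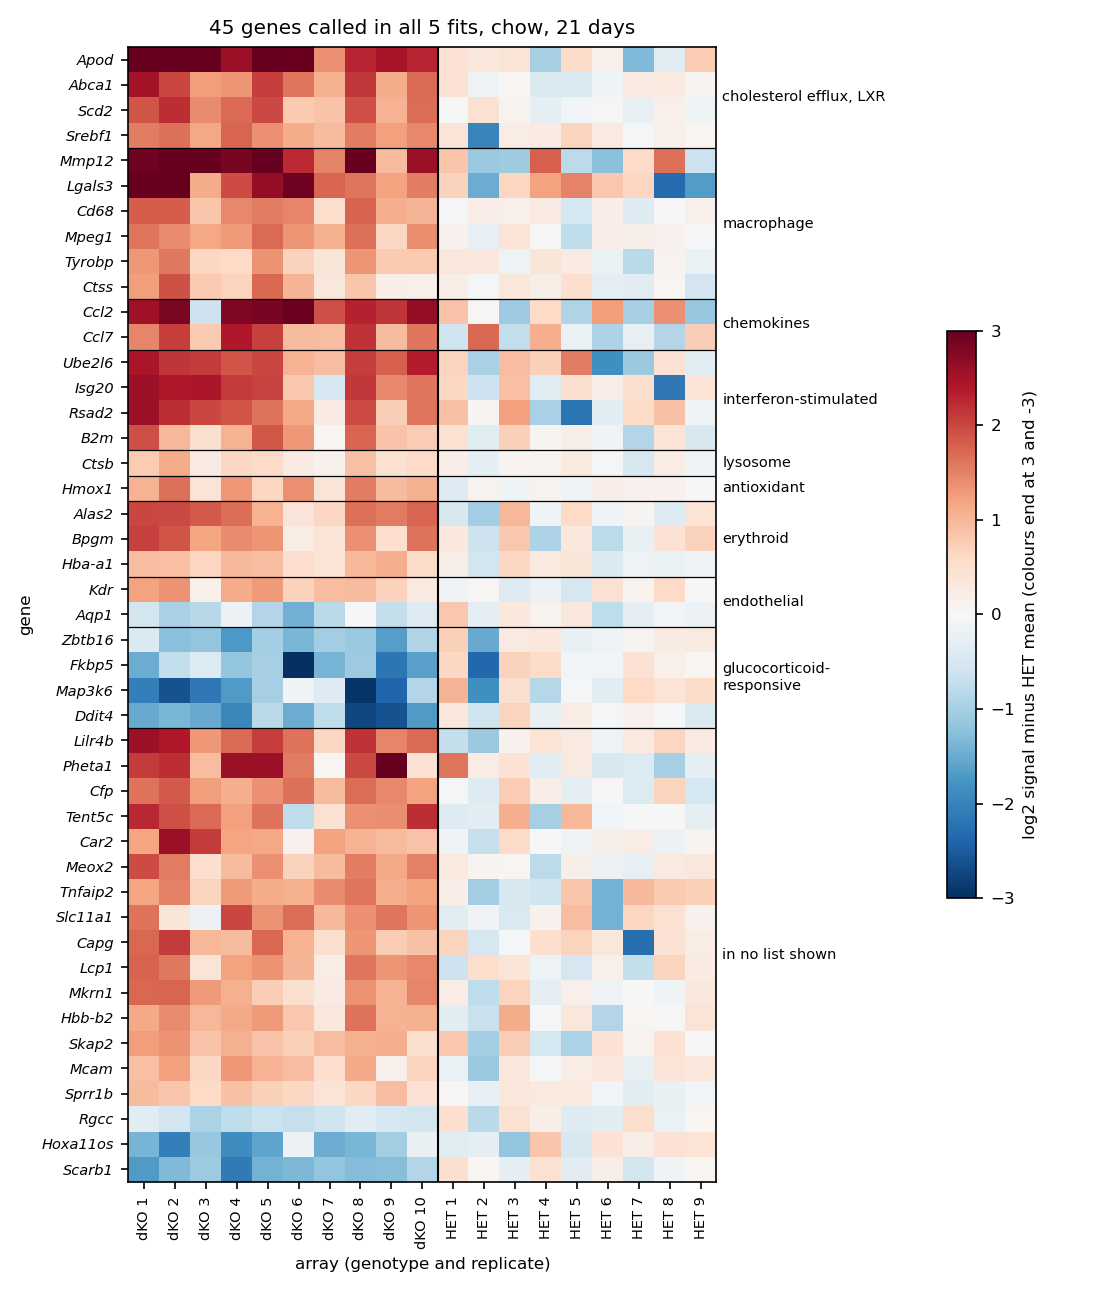
Log2 signal of the 45 genes (rows, by gene list) in the 10 dKO and 9 HET arrays (columns), each minus the gene's HET mean; colours end at 3 and -3. Red fills the dKO columns for 37 genes and blue for 8, with gaps such as Ccl2 in dKO 3, and HET 2 is blue for Srebf1, Fkbp5 and Zbtb16.

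Scarb1 itself was lower in dKO hearts, but signal remained. Its values in dKO arrays lay between 5.56 and 6.80 (median 6.37) and in HET arrays between 7.13 and 8.16 (median 7.73), without overlap. The difference was -1.36 ± 0.14 (SE), which is 2.57-fold lower, with an adjusted p of 9.72e-13 (limma). No source used here says whether the probe set falls inside the deletion, and the HET controls themselves carry 1 working allele. Apoe, absent by design on both sides, had 2 probe sets with mean log2 signals of 2.42 and 2.58 in dKO and 2.84 and 3.09 in HET arrays before centring, close to the floor of 2.08, and was too dim to be tested.

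Among genes of cholesterol export and LXR targets, 7 of 11 tested members were higher in dKO hearts (4.12% of all genes were), 4 of them in all 5 fits (0.651% of all genes), and none was lower. The lists and their members were chosen with earlier results of these data known. List shares and medians, here and below, can follow in part from that choice and are a description. The median difference of the 11 was 0.70, against 0.12 for all genes. Abca1, the transporter that loads cell cholesterol onto apolipoprotein A-I, lay between 7.94 and 9.37 (median 8.51) in dKO arrays and between 6.42 and 7.30 (median 6.93) in HET arrays. Every dKO heart was above every HET heart, the difference was 1.68 ± 0.16 (3.19-fold, adjusted p = 2.49e-13, limma), and a second probe set gave 1.82 ± 0.20. Scd2, a desaturase that makes monounsaturated fatty acids, lay between 8.50 and 9.93 (median 9.41) in dKO and between 7.42 and 8.18 (median 7.73) in HET hearts. It had the smallest adjusted p of the members (3.74e-16, limma) at a difference of 1.55 ± 0.13. Srebf1, the transcription factor through which LXR drives fatty acid synthesis, lay between 8.10 and 8.89 (median 8.55) in dKO and between 5.17 and 7.82 (median 7.37) in HET hearts. HET replicate 2 held the lowest value, and the difference of 1.38 ± 0.15 became 1.13 ± 0.11 without it (adjusted p = 2.59e-13, limma). Apod, a lipocalin carried on high-density lipoprotein, lay between 5.75 and 8.01 (median 7.16) in dKO and between 3.07 and 5.14 (median 4.73) in HET hearts. At 2.78 ± 0.35 (6.88-fold, adjusted p = 3.81e-09, limma) it was the second largest rise of all.

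The remaining 3 members that rose did not pass in all 5 fits. Pltp, the plasma phospholipid transfer protein, had non-overlapping groups, with dKO hearts at 8.37 to 9.17 and HET hearts at 7.74 to 8.36, and a difference of 0.65 ± 0.13. Abcg1, which exports cholesterol to high-density lipoprotein, differed by 0.60 ± 0.15, and Scd1 by 0.88 ± 0.22; both were named after their values had been seen. Fasn, whose promoter carries the letters shown above, differed by 0.36 ± 0.23 (adjusted p = 0.367, limma) and did not pass. On the side of cholesterol synthesis and LDL uptake 5 genes were bright enough to be tested, and none was higher (4.12% of all genes were). Nsdhl, an enzyme of the late pathway, fell by 0.67 ± 0.18 (adjusted p = 0.011, limma), where 0.985% of all genes were lower. The 19 arrays alone did not give that call (adjusted p = 0.0906).

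**Figure D3:**
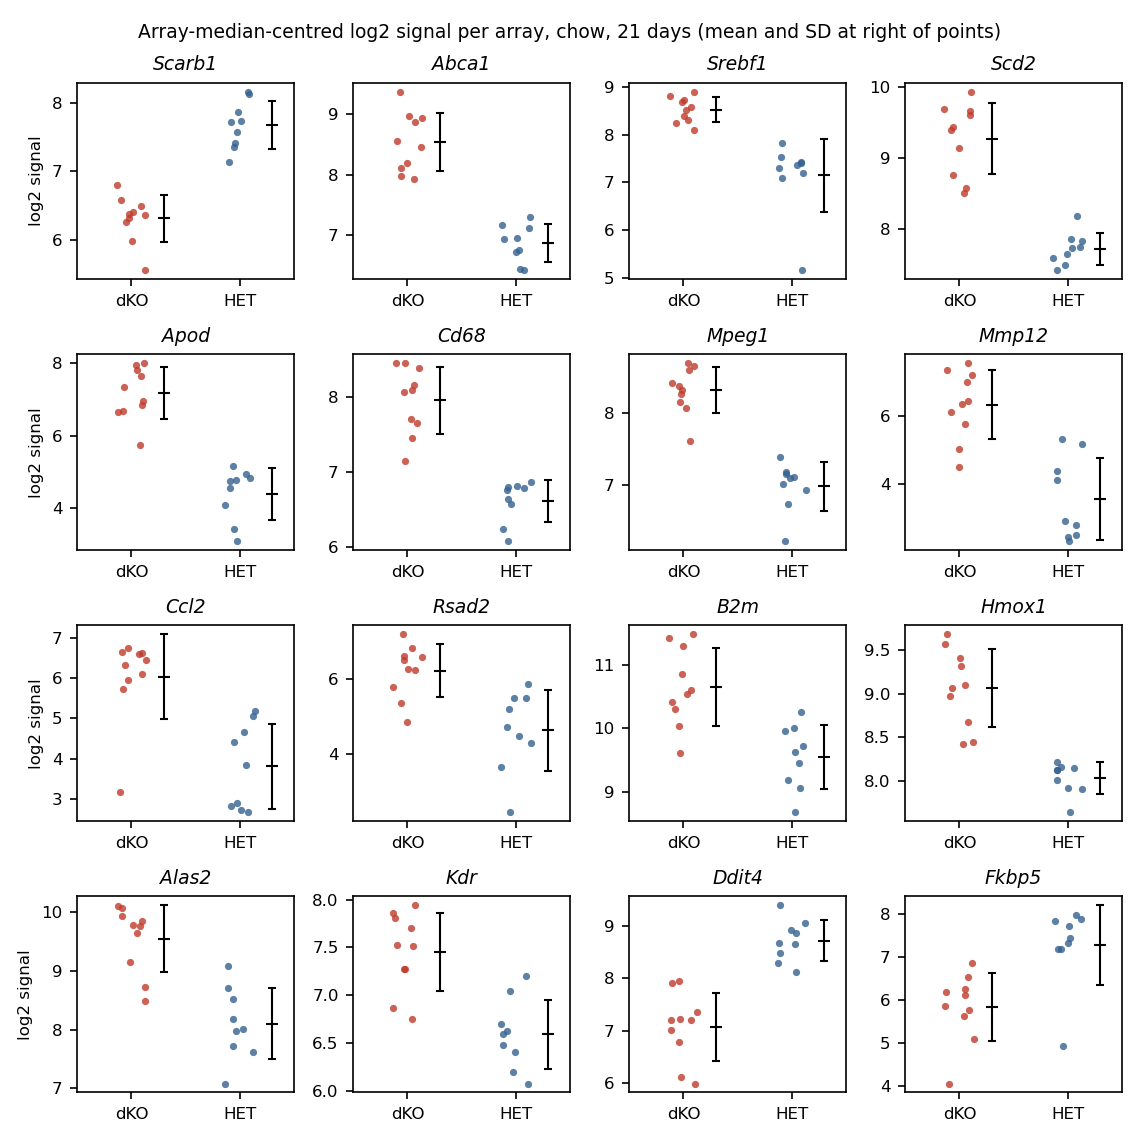
Log2 signal of 16 genes in each of the 10 dKO (red, left) and 9 HET (blue, right) arrays, with the mean and SD beside the points. Scarb1, Abca1, Srebf1, Scd2, Apod, Cd68, Mpeg1, Hmox1 and Ddit4 show no overlap between the groups, and single arrays stand apart for Ccl2 in dKO (3.18) and for Srebf1 and Fkbp5 in HET (5.17 and 4.93).

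Of 19 tested macrophage markers 11 rose in dKO hearts (4.12% of all genes did) and none fell, 6 of them in all 5 fits (0.651% of all genes). The median difference of the 19 was 0.57, against 0.12 for all genes. Cd68, a lysosomal membrane protein of macrophages, lay between 7.14 and 8.45 (median 8.07) in dKO and between 6.08 and 6.87 (median 6.76) in HET hearts, a difference of 1.33 ± 0.15 (adjusted p = 3.63e-10, limma). Mpeg1, a pore-forming protein of phagocytes, lay between 7.62 and 8.68 (median 8.34) in dKO and between 6.23 and 7.39 (median 7.11) in HET hearts, and differed by 1.32 ± 0.16 (adjusted p = 1.09e-09, limma). Neither gene overlapped between the genotypes. Mmp12, the macrophage elastase, was the largest rise at 2.81 ± 0.46 (7.01-fold, adjusted p = 1.38e-05, limma). Its dKO values lay between 4.49 and 7.59 (median 6.42) and its HET values between 2.29 and 5.34 (median 2.90), with 2 HET and 0 dKO arrays at the floor, so the fold is understated. A second Mmp12 probe set gave 1.55 ± 0.28. Lgals3, the galactose-binding lectin galectin-3, differed by 2.16 ± 0.37, Tyrobp, an adaptor of myeloid receptors, by 0.94 ± 0.17, and Ctss, the cysteine protease cathepsin S, by 0.89 ± 0.20. The complement genes C1qa, C1qb and C1qc, which macrophages make, rose by 0.53 ± 0.16, 0.55 ± 0.15 and 0.57 ± 0.16 but did not pass as deposited or with quantile normalization. Not every marker rose: 17 of the 19 had a positive difference, and the lowest was -0.38. Adgre1, Csf1r and Cd14 of the list had mean signals before centring of 4.09, 7.13 and 7.72 in dKO arrays. In HET arrays they had 4.68, 7.29 and 7.86, on a scale where the median difference of all genes was -0.10. In whole hearts more macrophages and more RNA of the genes that rose per macrophage cannot be told apart.

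Further genes of the 45 are known from phagocytes and their activation. Ccl2, the chemokine that draws monocytes into tissue, lay between 3.18 and 6.74 (median 6.39) in dKO and between 2.66 and 5.17 (median 3.85) in HET hearts. The single low dKO heart was replicate 3, the other 9 lay above all HET hearts, and the difference was 2.23 ± 0.38 (adjusted p = 3.24e-05, limma) with it and 2.55 ± 0.36 without it. Ccl7, a related monocyte chemokine, differed by 1.54 ± 0.34, with 4 HET arrays at the floor, and its call was lost with the replicate number as a block and with the higher floor at the 30th percentile (0.45, adjusted p = 0.265, limma). Of 9 tested chemokines 4 rose (4.12% of all genes did) and none fell, the other 2 being Ccl12 (0.99 ± 0.30) and Cxcl12 (0.53 ± 0.13). Cfp, properdin, which stabilises the complement convertase, lay between 5.87 and 6.76 in dKO and between 4.38 and 5.67 in HET hearts and differed by 1.41 ± 0.20 (adjusted p = 1.31e-07, limma). Lilr4b, an inhibitory receptor of myeloid cells, differed by 1.76 ± 0.20. Slc11a1, the metal transporter of the phagosome, differed by 1.21 ± 0.28 and lost its call with the replicate block. Lcp1, the actin-bundling plastin of leukocytes, differed by 1.19 ± 0.23, and Capg, an actin-capping protein, by 1.20 ± 0.27, although a dimmer second Capg probe set gave 0.01 ± 0.32 and the mean of both ended the call. Skap2, an adaptor of Src-family kinases, and Tnfaip2, a gene induced by tumour necrosis factor, differed by 0.97 ± 0.23 and 1.21 ± 0.27.

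The lysosomal genes that were called differed by smaller steps. Of 20 tested, 8 rose (4.12% of all genes did) and none fell, at a median of 0.43 against 0.12 for all genes. Ctsb, cathepsin B, was the one member to pass in all 5 fits, at 0.56 ± 0.12 (adjusted p = 0.00194, limma) and at 0.34 as deposited. Its other probe sets had the same sign but did not pass, at 0.27 ± 0.13 and 0.38 ± 0.20 (adjusted p = 0.233 and 0.252, limma). Cd63, a tetraspanin of late endosomes, differed by 0.55 ± 0.11, Atp6v1a, a subunit of the proton pump, by 0.56 ± 0.11, and Npc2, which carries cholesterol out of the lysosome, by 0.51 ± 0.11, and the last 3 did not pass as deposited. Hmox1, the heme-degrading oxygenase, lay between 8.42 and 9.69 (median 9.08) in dKO and between 7.64 and 8.22 (median 8.13) in HET hearts without overlap. Its difference was 1.04 ± 0.13 (2.05-fold, adjusted p = 6.24e-09, limma). Among 21 tested genes of antioxidant defence and iron 2 rose (4.12% of all genes did), Hmox1 and the glutathione transferase Gstm2 (0.93 ± 0.23).

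Interferon-stimulated genes formed a smaller group. Of 16 tested, 4 rose (4.12% of all genes did), all 4 in all 5 fits, and none fell, with a median of 0.47 against 0.12 for all genes. Ube2l6, the enzyme that conjugates ISG15, differed by 1.88 ± 0.36 (adjusted p = 2.68e-04, limma), and Isg20, an antiviral exonuclease, by 1.70 ± 0.35. Rsad2, the antiviral enzyme viperin, lay between 4.87 and 7.20 (median 6.39) in dKO and between 2.44 and 5.86 (median 4.71) in HET hearts, and 7 of 10 dKO hearts were above all HET hearts (1.60 ± 0.33, adjusted p = 0.00106, limma). B2m, the light chain of MHC class I, lay between 9.61 and 11.48 (median 10.57) in dKO and between 8.68 and 10.26 (median 9.63) in HET hearts (1.10 ± 0.24, adjusted p = 0.0022, limma). H2-K2, an MHC class I probe set that may also bind related transcripts, differed by 1.68 ± 0.44, with HET hearts spread between 5.24 and 9.20, and the 19 arrays alone did not call it (adjusted p = 0.0528). None of 7 tested MHC class II genes passed in limma (5.10% of all genes did), and their median was 0.04. At an unadjusted p under 0.05 (limma) 0 of the 7 passed, where 1185 of all 5683 genes tested did.

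Red-cell genes were also among those higher in dKO hearts, where more blood in the sample and more of these transcripts per red cell cannot be told apart. Of 6 tested erythroid markers 4 rose (4.12% of all genes did) and none fell, with a median of 0.95 against 0.12 for all genes, and the mean level of the 6 was 8.11 to 9.08 in dKO and 7.47 to 8.56 in HET arrays. Alas2, the first enzyme of heme synthesis in red-cell precursors, lay between 8.48 and 10.09 (median 9.77) in dKO and between 7.08 and 9.09 (median 8.00) in HET hearts (1.45 ± 0.21, adjusted p = 2.59e-07, limma). Slc4a1, the anion exchanger of the red-cell membrane, had non-overlapping groups (1.11 ± 0.25) and did not pass as deposited. Bpgm, which makes the oxygen-affinity regulator bisphosphoglycerate, differed by 1.19 ± 0.23, and the globin probe sets Hba-a1 and Hbb-b2, which cannot tell near-identical globin copies apart, by 0.80 ± 0.16 and 1.08 ± 0.19. Hemgn, a marker of early erythroid cells, was at the floor in 5 of 10 dKO and 2 of 9 HET arrays. Also among the 45 were Car2, a carbonic anhydrase abundant in red cells and elsewhere (1.24 ± 0.23), Mkrn1, a ubiquitin ligase (1.11 ± 0.16), and Tent5c, a poly(A) polymerase (1.34 ± 0.30). Another Mkrn1 probe set gave 0.97 ± 0.39 and did not pass (adjusted p = 0.139, limma). The part of blood in the other differences was not tested.

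The falls among the 45 genes included 4 of the 22 tested glucocorticoid-responsive genes, where 0.985% of all genes were lower and 0.141% were so in all 5 fits, and no member of that list rose. The list's median was -0.23, against 0.12 for all genes. Ddit4, an inhibitor of the growth kinase mTORC1 that glucocorticoids and lack of oxygen induce, lay between 5.995 and 7.94 (median 7.21) in dKO and between 8.12 and 9.39 (median 8.67) in HET hearts. Every dKO heart was below every HET heart, and Ddit4 was the largest fall of the 45 at -1.64 ± 0.26 (3.12-fold lower, adjusted p = 3.23e-06, limma). Zbtb16, a zinc-finger repressor, lay between 7.33 and 8.62 (median 7.90) in dKO and between 7.53 and 9.75 (median 9.29) in HET hearts, a difference of -1.16 ± 0.26. Fkbp5, the co-chaperone that restrains the glucocorticoid receptor, lay between 4.07 and 6.87 (median 5.99) in dKO and between 4.93 and 7.97 (median 7.43) in HET hearts (-1.43 ± 0.39, adjusted p = 0.015, limma). Map3k6, a stress-activated kinase, differed by -1.62 ± 0.39. The overlap came from 1 heart for 2 of these genes: HET replicate 2 held the lowest HET value of Fkbp5 (4.93, the next being 7.19) and of Zbtb16 (7.53, the next being 8.82). Without it the differences were -1.72 ± 0.38 for Fkbp5 and -1.35 ± 0.25 for Zbtb16. No source used here gives the time of day at which hearts were taken. Of 14 tested clock genes Bhlhe40 was higher (0.59 ± 0.16) and Wee1 lower (-1.64 ± 0.45), neither in all 5 fits. Across all genes 4.12% were higher and 0.985% lower.

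**Figure D4:**
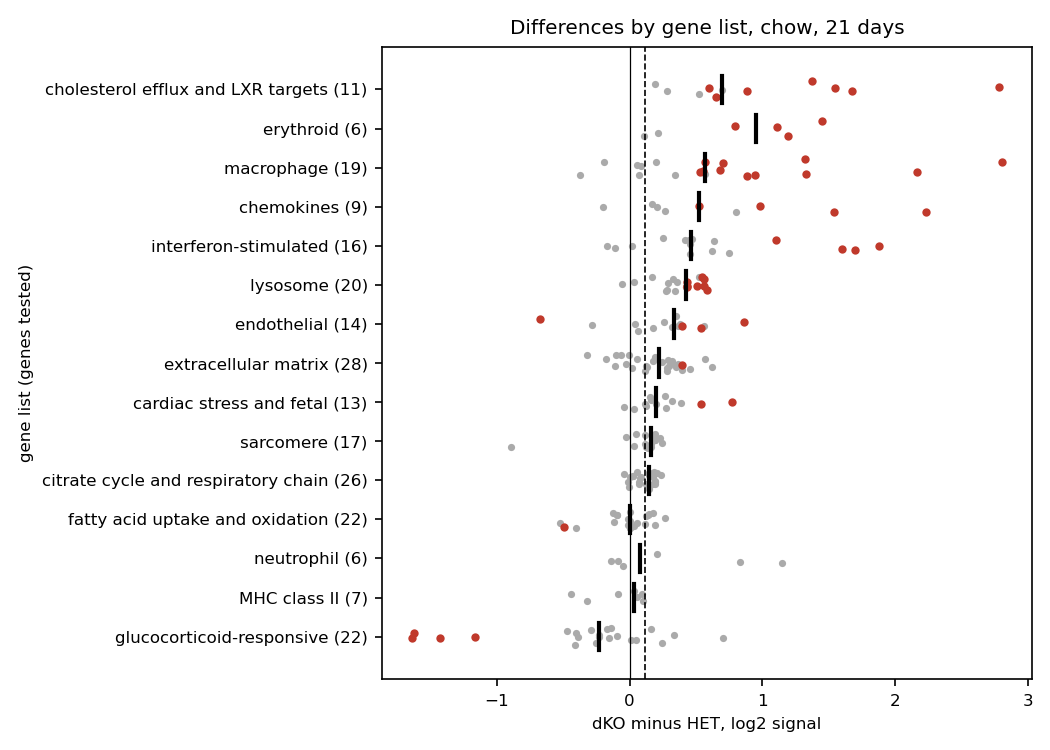
Differences between dKO and HET hearts (horizontal, log2 signal) of the tested members of 15 gene lists (rows, number tested in brackets). Red points passed the threshold, black bars are list medians and the dashed line is the median of all genes at 0.12; the medians run from 0.95 for erythroid to -0.23 for glucocorticoid-responsive genes.

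Calls among vessel genes went in both directions, the fall being that of Aqp1 alone. Of 14 tested endothelial markers 3 rose and 1 fell (4.12% and 0.985% of all genes did). Most of the list leaned upward: 12 of the 14 had a positive difference, where 3934 of all 5683 genes tested did. Its median was 0.33, against 0.12 for all genes, and 7 passed at an unadjusted p under 0.05 (limma). Kdr, the receptor VEGFR2, lay between 6.75 and 7.94 (median 7.52) in dKO and between 6.08 and 7.20 (median 6.59) in HET hearts (0.86 ± 0.16, adjusted p = 1.28e-04, limma). Tek, the angiopoietin receptor, and Eng, endoglin, differed by 0.54 ± 0.13 and 0.40 ± 0.13, and were not called by the 19 arrays alone. Aqp1, a water channel of endothelium and red cells, fell by 0.68 ± 0.18 (adjusted p = 0.0153, limma), lost its call without HET replicate 1 (-0.58, adjusted p = 0.0533) and when probe sets were averaged, and had a dimmer second probe set of opposite sign (0.46 ± 0.39). Meox2, a homeobox factor of vascular and muscle cells, lay between 6.18 and 7.63 (median 6.92) in dKO and between 4.88 and 6.01 (median 5.75) in HET hearts without overlap (1.22 ± 0.22, adjusted p = 1.15e-04, limma). Mcam, the adhesion molecule CD146, differed by 0.85 ± 0.15. Of 8 adhesion molecules 1 rose (4.12% of all genes did), Icam2 (0.63 ± 0.19), with no call under the other 3 scalings or in the 19 arrays alone.

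The remaining members of the 45 were few. Sprr1b, a small proline-rich protein known from stressed epithelia, had dKO values between 12.27 and 12.83 and HET values between 11.56 and 12.21 (0.70 ± 0.13, adjusted p = 2.47e-04, limma). In dKO arrays that is near the level of Myh6 (12.52 to 13.24) and of the globin probe set Hbb-b2 (median 12.57). Whether the Sprr1b probe set also binds other transcripts was not tested, nor was the part of blood in its difference. Pheta1, an endosomal adaptor, differed by 1.75 ± 0.42. Rgcc, a regulator of the cell cycle, fell by 0.59 ± 0.16 and lost its call without HET replicate 7 (-0.53, adjusted p = 0.0536) and with the replicate block. Hoxa11os, a noncoding transcript opposite Hoxa11, fell by 1.24 ± 0.31 and lost its call with that block and with the floor at the 30th percentile (-0.68, adjusted p = 0.124, limma). Exosc4, a subunit of the RNA exosome, had non-overlapping groups at a difference of 0.46 ± 0.11 but passed neither as deposited nor with quantile normalization.

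Few genes of the heart muscle itself were called at this age. None of 17 sarcomere genes and none of 7 calcium-handling genes passed (5.10% of all genes did), with medians of 0.16 and 0.14, close to 0.12 for all genes. At an unadjusted p under 0.05 (limma) 3 sarcomere and 2 calcium genes passed, where 1185 of all 5683 genes tested did. The lowest differences were -0.90 for Tcap of the sarcomere list and -0.30 for Casq2 of the calcium list. Tcap lay between 3.34 and 6.55 in dKO and between 4.62 and 6.90 in HET arrays. Of 13 stress and fetal genes 2 rose (4.12% of all genes did), Nppb, the B-type natriuretic peptide (0.77 ± 0.24, adjusted p = 0.0478, limma), and Ankrd1, a stress-induced titin-binding protein (0.54 ± 0.17, adjusted p = 0.0459). Both calls ended in the 19 arrays alone (adjusted p = 0.0594 and 0.188) and with the array set as a block. Of 22 genes of fatty acid use the transcription factor Ppara fell by 0.49 ± 0.13 (0.985% of all genes were lower). The 26 of the citrate cycle and respiratory chain gave no call in limma (5.10% of all genes were called), with 1 at an unadjusted p under 0.05. Glycolysis had 1 call of 14, Pfkl (0.51 ± 0.13), and the extracellular matrix 1 of 28, the basement membrane collagen Col4a2 (0.39 ± 0.12), both upward (4.12% of all genes were higher). Of the 14 glycolysis genes 8 passed at an unadjusted p under 0.05 (limma), and of the 28 matrix genes 7 did. The glycolysis median was 0.25, against 0.12 for all genes. Ier2, an immediate early gene, rose by 0.61 ± 0.15, 1 of 14 of its list (4.12% of all genes were higher). Hif1a, the oxygen-regulated transcription factor, rose by 0.44 ± 0.12, 1 of 12 of the hypoxia list beside the fall of Ddit4 (0.985% of all genes were lower). Of these 12 hypoxia genes 6 passed at an unadjusted p under 0.05 (limma), and the list's median was 0.29. No gene of these lists other than Ddit4 passed in all 5 fits.

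Markers of other cells that a whole heart could hold gave no calls among 6 neutrophil, 3 T and NK cell, 4 B cell, 7 adipocyte, 8 skeletal muscle and 7 smooth muscle genes in limma. At an unadjusted p under 0.05 the counts were 2, 1, 0, 1, 0 and 1 in that order. Across all 5683 genes tested 5.10% were called, and 1185 passed at that unadjusted p. The neutrophil alarmins S100a9 and S100a8 had differences of 1.15 ± 0.40 (adjusted p = 0.0785, limma) and 0.83 ± 0.32 (adjusted p = 0.113), and S100a9 passed with the floor at the 30th percentile (0.91, adjusted p = 0.0488). Among 4 lung genes Ager, the receptor RAGE, was higher (1.01 ± 0.31), in fewer than all 5 fits, where 4.12% of all genes were higher. Its part in the other differences was not tested.

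Many of the larger falls outside the 45 were transcripts that the heart shows dimly. Lhx1, Clca1, En2, Cblif, Slc6a18, St6galnac3, Gm10229, Ormdl1 and Wee1 had dKO means between 3.82 and 4.59, and HET means between 5.27 and 5.86, in a scale whose floor before centring was 2.08. Clca1, a secreted epithelial protein, was at the floor in 3 dKO and 0 HET arrays and had a difference of -1.45 ± 0.32, and En2, a homeobox factor of the brain, was there in 2 and 0 (-1.38 ± 0.35). In the fit of the 19 arrays alone Lhx1, Slc6a18 and Wee1 still passed and the other 6 did not. Dpep3, at 6.77 in dKO and 7.97 in HET hearts, was brighter (-1.19 ± 0.25) and also did not pass there (adjusted p = 0.0857). With the floor raised to the 30th percentile of all values, 7 of the 9 calls ended and only Gm10229 and Slc6a18 passed, and the 9 differences lay between -1.04 and -0.54. Clca1 was then at -0.54 (adjusted p = 0.246, limma), St6galnac3 at -0.56 (adjusted p = 0.153), En2 at -0.70 (adjusted p = 0.0911) and Lhx1 at -0.87 (adjusted p = 0.179). With the array set as a block 4 of the 9 passed, Clca1, St6galnac3, Gm10229 and Ormdl1, and so did Dpep3, while Wee1 did not (adjusted p = 0.111). Within dKO hearts En2 lay at 2.56 to 4.73 in the 6 arrays of the smaller set and at 5.05 to 5.91 in the 4 of the larger one.

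At later ages most of the 37 higher genes were still higher, in hearts of other mice. At 31 days 33 of the 37 passed as higher (8.25% of all genes did, of 31.2% called) and at 43 days 34 did (19.2%, of 47.1%), with medians of 1.74 and 2.29 against 1.24 at 21 days. The genes were chosen on their values at 21 days, which enter the differences between ages. From 21 to 43 days the genotype difference grew for 25 of the 37 under all 4 scalings and with the array set as a block, and to 31 days for 9. Apod differed by 6.14 ± 0.34 at 31 days and 6.46 ± 0.33 at 43 days, a growth of 3.36 (adjusted p = 2.12e-06, limma) and 3.68 (adjusted p = 2.16e-09). Alas2 differed by 2.62 ± 0.20 and 3.59 ± 0.20, and Mpeg1 by 2.01 ± 0.15 and 3.51 ± 0.15. For Mmp12 the values were 5.12 ± 0.45 and 6.13 ± 0.44, and for Lgals3 4.07 ± 0.36 and 5.86 ± 0.36, and the growth to 31 days of these 2 and of Mpeg1 was not called with the array set as a block (adjusted p = 0.159, 0.0722 and 0.0544). Abca1 stood at 1.57 ± 0.16 and 2.29 ± 0.15, and Scd2 at 1.31 ± 0.13 and 1.39 ± 0.12.

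For a few genes the difference was smaller at the later ages under the scaling used here. Kdr differed by 0.86 ± 0.16 at 21 days, -0.13 ± 0.15 at 31 days and -0.06 ± 0.15 at 43 days, and the change to 43 days was -0.92 (adjusted p = 5.18e-04, limma) here and -0.36 (adjusted p = 0.235) as deposited. Meox2 differed by 1.22 ± 0.22, 0.15 ± 0.22 and 0.08 ± 0.21, with a change to 43 days of -1.14 (adjusted p = 0.00225, limma) here and -0.57 (adjusted p = 0.125) as deposited. Srebf1 differed by 1.38 ± 0.15, 0.78 ± 0.14 and 0.56 ± 0.14 and passed at each age, and its change to 43 days of -0.82 (adjusted p = 0.00101, limma) was -0.25 (adjusted p = 0.315) as deposited. Pheta1 differed by 1.75 ± 0.42, -0.39 ± 0.41 and -0.07 ± 0.40, and its change was not called with the array set as a block (adjusted p = 0.263 at 43 days). The falls of 3 glucocorticoid-responsive genes were not seen at 43 days. Ddit4 differed by -1.64 ± 0.26 at 21 days, -0.48 ± 0.25 at 31 days and 0.05 ± 0.24 at 43 days, Fkbp5 by -1.43 ± 0.39, 0.45 ± 0.38 and 0.95 ± 0.37, and Map3k6 by -1.62 ± 0.39, 0.29 ± 0.38 and 0.76 ± 0.38. Their changes to 43 days were 1.69, 2.38 and 2.38 (adjusted p = 7.75e-05, 2.57e-04 and 3.08e-04, limma), and passed under all 4 scalings and with the array set as a block. Of the 8 lower genes 4 passed as lower at 31 days (22.9% of all genes did) and 5 at 43 days (27.9%), when Fkbp5 passed as higher. Zbtb16 stayed lower, at -1.05 ± 0.25 and -1.93 ± 0.25. Aqp1 moved further down, to -1.43 ± 0.18 and -2.11 ± 0.18.

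**Figure D5:**
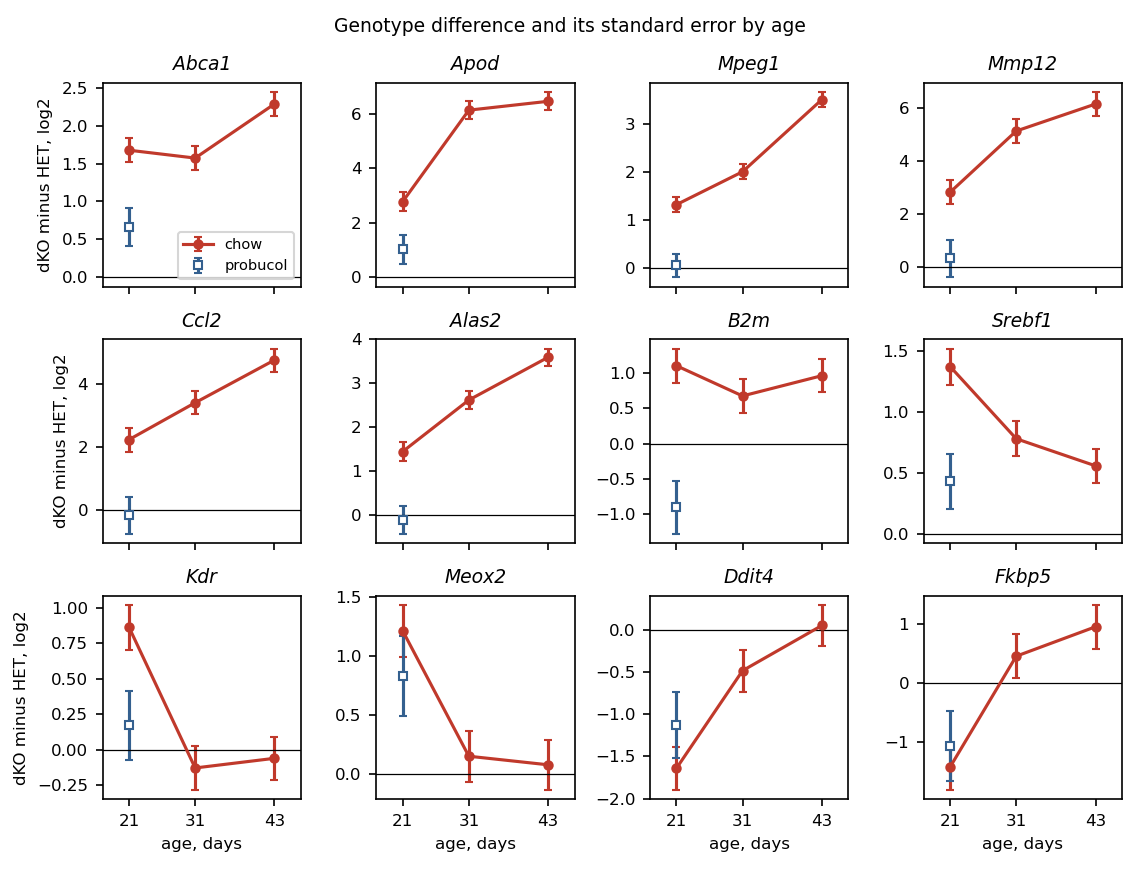
Difference between dKO and HET hearts (vertical, log2 signal, bars are SE) of 12 genes against age (horizontal, days), on chow (red) and at 21 days on probucol (blue squares). Apod, Mpeg1, Mmp12, Ccl2 and Alas2 climb with age, Kdr and Meox2 are near 0 at 31 and 43 days, and Ddit4 and Fkbp5 are low at 21 days on both diets.

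Across all genes the difference changed from 21 to 31 days for 1421 (25.0%), 241 upward (4.24%) and 1180 downward (20.8%), and from 21 to 43 days for 1880 (33.1%), 545 upward (9.59%) and 1335 downward (23.5%). Those directions changed with the scaling: as deposited the counts were 795 upward and 26 downward to 31 days, and 1870 and 344 to 43 days. The array sets were unevenly spread as well. At 31 and 43 days all dKO arrays lay in the larger set, while HET arrays lay in both. Once the fit allowed for the set, 147 genes changed to 31 days, 42 upward and 105 downward. To 43 days 1481 did, 502 upward and 979 downward. Beyond that fit, the part of the array set in the changes with age was not tested.

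The same genotypes at 21 days on probucol gave a comparison with no array in common, of 6 dKO and 3 HET hearts. There 3 genes passed (0.0528%), all lower in dKO hearts, Scarb1 (-0.94 ± 0.21, adjusted p = 0.0402, limma) and the MHC class I genes H2-Bl (-1.35 ± 0.28) and H2-K1 (-1.35 ± 0.29). The 37 and 8 genes were chosen on the chow arrays, so a smaller difference on probucol follows in part from the choice, and the values are a description. Of the 37 genes higher on chow 17 had a positive difference (45.9%, against 39.9% of all genes), with a median of -0.01. Of the 8 lower ones 6 were negative (3417 of all 5683 genes were), with a median of -0.87. Abca1 differed by 0.66 ± 0.25, Scd2 by 0.52 ± 0.20 and Apod by 1.03 ± 0.53 on probucol, Cd68 by 0.05 ± 0.24, Mpeg1 by 0.06 ± 0.24 and Alas2 by -0.10 ± 0.32. Ddit4 differed by -1.12 ± 0.39, Fkbp5 by -1.07 ± 0.60, Map3k6 by -1.49 ± 0.60 and Zbtb16 by -0.76 ± 0.40, none past the threshold. A test of chow against probucol called 42 genes (0.739%), 41 with the larger difference on chow (0.721%) and 1 with the smaller (0.0176%). Of the 41, 14 were among the 37, a number that the choice on the chow arrays raises, including Cd68 (1.29 ± 0.28, adjusted p = 0.00981, limma), Mpeg1 (1.26 ± 0.29, adjusted p = 0.0126) and B2m (2.00 ± 0.45, adjusted p = 0.00981). This was added after the data had been seen and gave 6 genes as deposited, none of them among the 37, and 14 genes with quantile normalization, 4 of them among the 37. For Ddit4, Fkbp5 and Map3k6 the difference between the diets was -0.52 ± 0.47, -0.36 ± 0.71 and -0.14 ± 0.72 and did not pass, with intervals too wide to call the diets alike.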

How the data were processed

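Total RNA of whole hearts was labelled and hybridised to 1 Affymetrix array per mouse, per the labels' protocols. The authors deposited 1 linear signal intensity per probe set, and the submitters' processing notes name MAS5; no source used here gives their scaling, and their number limits the precision. Here 12488 deposited probe-set intensities in 88 arrays were floored at the 10th percentile, log2-transformed and centred per array on the median. The brightest 60% of probe sets by mean were kept if they had 1 gene symbol, with 1 probe set per gene, the brightest (10855 of 12488 had 1 symbol in the platform annotation, 396 several). Groups were taken from the titles. A model with 12 group means was fitted with limma 3.58.1 in R 4.3.3 (moderated tests, intensity trend, Benjamini-Hochberg over 5683 genes, threshold 0.05) after a test on simulated data. Mice are the replicates. The genes named are Scarb1, Apoe, the 15 largest rises and 15 largest falls, and up to 15 called genes whose groups did not overlap. They also include up to 4 called members per list. In lists without a call up to 2 members were picked by p. Of these the text gives differences only for S100a9, S100a8, Tcap and Casq2. The 45 genes called in 5 fits, and those marked as such, were added after the data were seen. Members and lists were chosen with earlier results of these data known. Alternatives changed the scaling, floor, filter, probe-set choice, trend, weights, arrays, blocks and covariates.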

Additional observations from a re-analysis of the deposited data

Results flagged for a closer look

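In 11 gene and genotype combinations 1 array stood apart, by a gap to its nearest neighbour that was a large share of the group's range; this rule marks some groups by chance. Ccl2 in dKO hearts had replicate 3 at 3.18 with the next at 5.74, a gap of 0.72 of the range. All the others were low HET arrays. HET replicate 2 stood apart for Srebf1 (5.17, next 7.10, gap 0.73), Fkbp5 (4.93, next 7.19, gap 0.743), Zbtb16 (7.53, next 8.82, gap 0.58), Mcam (5.98, next 6.87, gap 0.585) and Ormdl1 (4.01, next 5.35, gap 0.544). HET replicate 7 stood apart for Capg (2.93, next 4.69, gap 0.598) and Tyrobp (5.91, next 6.52, gap 0.512). HET replicate 8 stood apart for Isg20 (3.01, next 4.55, gap 0.505) and Exosc4 (7.20, next 7.53, gap 0.51), and HET replicate 4 for Meox2 (4.88, next 5.44, gap 0.494).

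The genotype difference changed with age in the test of the change itself (limma, all adjusted p under 0.05). It grew from 21 to 31 and to 43 days for Apod by 3.36 and 3.68, for Mmp12 by 2.31 and 3.32, for Lgals3 by 1.90 and 3.70, for Mpeg1 by 0.684 and 2.18, and for Alas2 by 1.17 and 2.15. It changed by -0.595 and -0.818 for Srebf1, by -1.06 and -1.14 for Meox2, by -0.991 and -0.923 for Kdr and by -2.14 and -1.82 for Pheta1. Among the genes lower at 21 days it changed by 1.16 and 1.69 for Ddit4, by 1.91 and 2.38 for Map3k6, by 1.88 and 2.38 for Fkbp5 and by -0.754 and -1.43 for Aqp1.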

How the results depend on the processing

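The 83 genes named as called kept their direction under the alternatives in which they were tested (61 of them with the upper 40% filter), which their choice on the same arrays favours. Calls were lost: 25 as deposited, 21 with quantile normalization, 19 in the 19 arrays alone, 19 with the array set as a block, 30 with the replicate block, 13 with the floor at the 30th percentile, 69 in the larger array set and 49 in the smaller. The count of 290 genes at 21 days became 119 as deposited, 129 with quantile normalization, 110 in the 19 arrays alone, 155 at a change of at least 1.5-fold, 144 with the array set as a block, 19 in the larger set alone and 168 in the smaller; the cause was not tested, beyond the fewer arrays in the subsets. Leaving out single replicates gave 174 (without dKO replicate 1) to 484 (without dKO replicate 3). The change to 31 days, 1421 genes, became 821 as deposited, 400 with quantile normalization (223 upward, 177 downward) and 147 with the array set as a block (42 upward, 105 downward). The change to 43 days stayed within 1.5 times, with 773 upward and 964 downward under quantile normalization and 502 and 979 with the block. On probucol 0 genes passed as deposited and with quantile normalization (limma; 245 and 248 at an unadjusted p under 0.05), and 0 to 27 without 1 HET replicate, 0 being without replicate 3 (248 unadjusted). The diet contrast gave 6 as deposited, 14 with quantile normalization and 7 to 62 without 1 HET replicate. With the replicate number as a block 72 genes passed (61 higher, 11 lower), 41 of the 45 among them. Same-numbered samples correlated by -0.167 to 0.209 over 9 pairs, 3 above 0.1, and 2 correlated best with their own number. The mice were therefore not treated as pairs, but so few pairs cannot show whether the numbers carry a shared litter or day. Signals near the floor limit dim genes, probe sets cannot part near-identical copies, whole hearts mix cell types, and the scaling before deposit is unknown.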

Other observations

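The MHC class I genes H2-K1 and H2-Bl, named after their values were seen, differed in sign between the diets. On chow the differences were 0.52 ± 0.19 (adjusted p = 0.0938, limma) and 0.36 ± 0.18 (adjusted p = 0.238), and on probucol -1.35 ± 0.29 and -1.35 ± 0.28. The test of the diets against each other gave 1.87 ± 0.34 for H2-K1 (adjusted p = 0.00218, limma) and 1.71 ± 0.33 for H2-Bl (adjusted p = 0.00294), with 6 dKO and 3 HET arrays on probucol. Both probe sets may bind related class I transcripts.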
